A study of Mus musculus with 12 samples.

Results

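The genes described here are 8 transcripts that mark the fibroblasts of the meninges: Dcn, Lum, Ogn, Islr, Aldh1a2, Ptgds, Slc6a13 and Slc22a6. They were taken by name from a table of 27833 genes, and all 8 were among the 13796 genes that averaged an FPKM of 0.5 or more. FPKM counts the sequenced fragments of a gene relative to its length and to the size of the library. The table holds hippocampal RNA of 12 wild-type C57BL/6J male mice that were 20 months old and had aged naturally. The CON group received 0.2 mL normal saline by oral gavage for 14 days (3 libraries), while the PQQ-L and PQQ-H groups received pyrroloquinoline quinone (PQQ), a redox cofactor, at 5 mg/kg/day (5 libraries) and 10 mg/kg/day (4 libraries) in the same volume. The design assigned 6 mice to each group, so the libraries cover a part of the mice. Each p-value below measures the spread between these libraries.

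Meningeal fibroblasts form the pia, the arachnoid and the inner dura, and they also line the larger vessels that enter the brain. They secrete collagens and small leucine-rich proteoglycans, produce retinoic acid, and carry transporters that move amino acids and organic anions between cerebrospinal fluid, blood and brain. The hippocampus itself holds few of these cells, which enter a dissection with the pia of the hippocampal fissure, with vessels and with the stroma of the adjacent choroid plexus. In bulk RNA, fewer cells of a type and less RNA per cell cannot be told apart.

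The 12 libraries held 29654553 to 38179496 reads on genes. They were not alike in the tissue they contained. The summed FPKM of 8 markers of striatal neurons was at most 146 in 8 libraries and at least 1184 in the other 4, which are CON 1, CON 3 and the libraries 1 and 2 of PQQ-H and are called striatum-rich below. The summed FPKM of 10 markers of hippocampal neurons ranged from 103 in CON 1 to 553 in PQQ-H 3. The summed FPKM of 20 choroid plexus markers was 1809 to 6018 in CON, 104 to 203 in PQQ-L and 79.0 to 97.0 in PQQ-H, and these groups did not overlap. Every one of the 20 markers was detected in all CON libraries, while Kcne2, Steap1 and Wfdc2 were listed at 0 in at least 1 PQQ-L library and Kcne2, Folr1, Otx2, Slc4a5, Krt8 and Wfdc2 in 1 PQQ-H library. The part of these tissue differences in the results below was not tested, and values without the striatum-rich libraries are given beside the group differences of the 8 genes and of the called fibroblast genes.

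Among the 8 genes, Ptgds was by far the highest, with a mean FPKM of 475 over the 12 libraries. It was followed by Dcn (9.05), Islr (3.61), Ogn (2.12), Aldh1a2 (1.76), Slc6a13 (1.63), Lum (0.886) and Slc22a6 (0.590). FPKM is scaled to gene length, so these levels can be compared between genes. The order of Ptgds above Dcn and of Islr above Ogn held in 12 of 12 libraries. Slc6a13 was above Lum in 11 of 12. The neighbours Dcn and Islr, Ogn and Aldh1a2, Aldh1a2 and Slc6a13, and Lum and Slc22a6 did not differ beyond the spread (SD) of their difference over the libraries. At least 22 reads were counted on every gene in every library, the smallest number being that of Lum in PQQ-H 2.

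The matrix genes are given first. Dcn encodes decorin, a small leucine-rich proteoglycan that binds collagen fibrils and growth factors. Its FPKM was 2.41, 25.4 and 7.83 in CON 1, 2 and 3, while the PQQ-L libraries 1 to 5 had 5.31, 9.07, 22.9, 2.63 and 19.2 and the PQQ-H libraries 1 to 4 had 3.03, 3.61, 4.06 and 3.14. CON 2, PQQ-L 3 and PQQ-L 5 were high, CON 1 and PQQ-L 4 were as low as the PQQ-H libraries, and all 3 groups overlapped. The highest CON library exceeded the lowest by 10.5-fold, whereas the PQQ-H libraries lay within 1.34-fold of each other. The group means were 11.9 ± 12.0 (SD, n = 3) for CON, 11.8 ± 8.84 (SD, n = 5) for PQQ-L, and for PQQ-H 3.46 ± 0.473 (SD, n = 4).

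Lum encodes lumican, a proteoglycan of the same family that lies beside Dcn on chromosome 10 in RefSeq GRCm38.p6. Its FPKM was 0.502, 1.67 and 1.48 in CON, 1.11, 1.12, 1.12, 0.658 and 1.02 in PQQ-L and 0.548, 0.327, 0.752 and 0.324 in PQQ-H. Again CON 1 fell among the PQQ-H libraries, and CON 2 and CON 3 were above all others. Kera, which encodes the related keratocan and follows Lum on the chromosome, was listed at 0 in 11 of the 12 libraries.

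Ogn encodes osteoglycin (mimecan), another small leucine-rich proteoglycan. Its FPKM was 0.509, 4.26 and 2.97 in CON, 3.33, 2.01, 2.32, 1.64 and 3.38 in PQQ-L and 0.997, 0.927, 1.34 and 1.72 in PQQ-H. The library with the lowest value was CON 1, and 3 of the 4 PQQ-H libraries were below every PQQ-L library. Islr, which encodes a secreted protein with leucine-rich repeats and an immunoglobulin domain, had an FPKM of 1.34, 5.03 and 5.35 in CON, 4.57, 3.93, 4.08, 3.33 and 3.85 in PQQ-L and 2.18, 2.73, 3.66 and 3.30 in PQQ-H. CON 1 was the lowest library for Dcn, Ogn and Islr alike.

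The enzymes came next. Aldh1a2 encodes the retinaldehyde dehydrogenase with which meningeal fibroblasts make retinoic acid. Its FPKM was 1.26, 4.45 and 1.81 in CON, 2.57, 0.856, 2.87, 1.46 and 2.20 in PQQ-L and 0.842, 1.09, 0.853 and 0.853 in PQQ-H. All 4 PQQ-H libraries were below the lowest CON library, and 3 of the 4 lay just below the lowest PQQ-L library, PQQ-L 2.

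Ptgds encodes the lipocalin-type prostaglandin D synthase, an abundant protein of cerebrospinal fluid that oligodendrocytes and the choroid plexus make as well as the meninges. Its FPKM was 567, 723 and 768 in CON, 626, 321, 602, 322 and 428 in PQQ-L and 425, 405, 230 and 285 in PQQ-H. The PQQ-H libraries did not overlap with CON, and 3 of the 5 PQQ-L libraries were below the lowest CON library. In contrast to the matrix genes, CON 1 was not low for Ptgds, and the CON libraries lay within 1.36-fold of each other.

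Slc6a13 encodes GAT2, a transporter of GABA and taurine at the surface of the brain. Its FPKM was 1.24, 2.78 and 1.49 in CON, 2.17, 1.09, 2.003, 1.37 and 1.73 in PQQ-L and 1.06, 1.74, 1.51 and 1.40 in PQQ-H. Its groups overlapped widely. Slc22a6 encodes OAT1, an exchanger of organic anions, and had an FPKM of 0.189, 1.52 and 0.794 in CON, 0.801, 0.247, 1.15, 0.452 and 0.851 in PQQ-L and 0.177, 0.337, 0.197 and 0.356 in PQQ-H. CON 1 and PQQ-L 2 were as low as the PQQ-H libraries. These values rest on 25 to 182 reads per library, and RefSeq places a second transcript, Gm36394, over Slc22a6. The strandedness of the libraries is not given in the sources used here, so reads of the overlapping pair cannot be told apart. Gm36394 was listed at 0 to 0.232 FPKM.

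**Figure D1:**
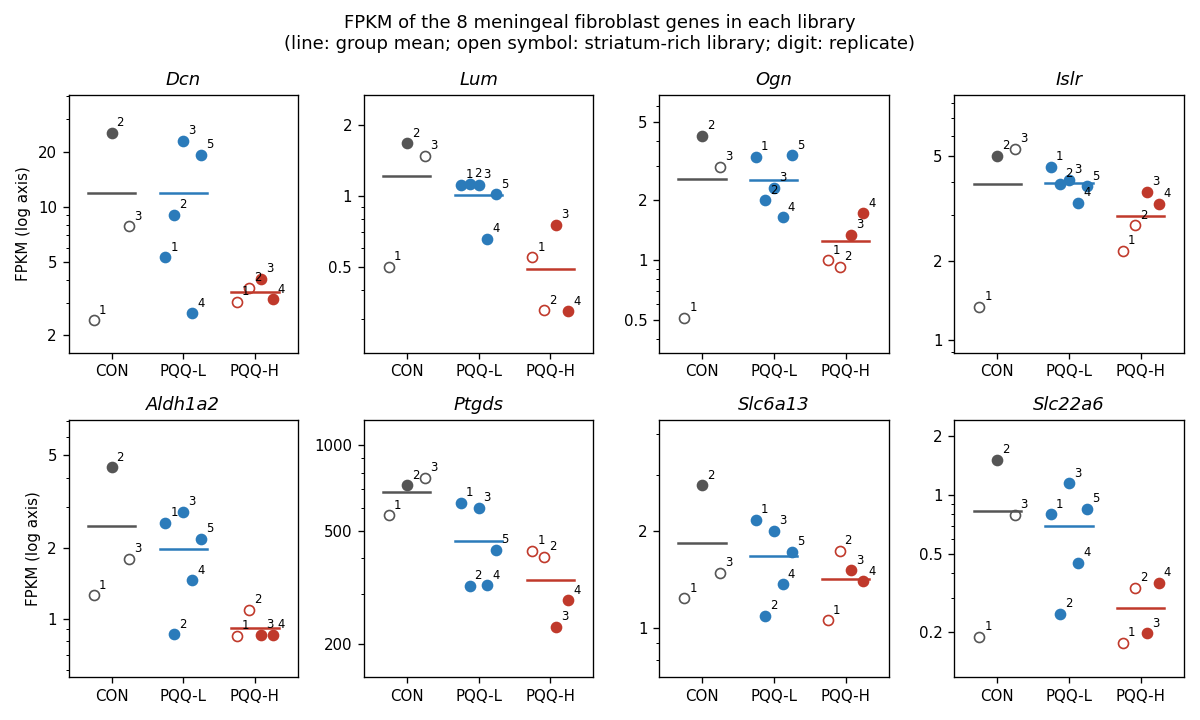
FPKM of each gene (log axis) in the 3 CON, 5 PQQ-L and 4 PQQ-H libraries, with 1 point per library, its replicate number beside it, a line at the group mean and open symbols for the striatum-rich libraries. CON 1 sits at or near the bottom for Dcn (2.41 FPKM), Ogn (0.509) and Islr (1.34), CON 2 sits at the top for 6 of the 8 genes, and the PQQ-H libraries of Dcn sit within 1.34-fold of each other.

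The first comparison asked whether low-dose PQQ changed these genes. With limma, 0 of the 8 passed the thresholds for DEGs (|log2FC| above 1 and Benjamini-Hochberg adjusted p below 0.05) in PQQ-L vs. CON, where 0.471% of all genes tested did. At an unadjusted p below 0.05, 1 of 8 was lower, against 11.6% of all genes, and 0 of 8 were lower without overlap between the libraries, against 7.66%. The log2FC was below 0 for 5 of 8, near the 53.9% of all genes, and the median over the 8 was -0.06, against -0.03 over all genes. The gene with the unadjusted p below 0.05 was Ptgds, with a mean FPKM of 460 ± 148 (SD, n = 5) after the low dose against 686 ± 106 (SD, n = 3) in CON, a log2FC of -0.62 (SE 0.271) and a limma adjusted p of 0.238. For Dcn the log2FC was 0.18 with a 95% confidence interval from -1.48 to 1.84, so that even sizeable differences in either direction were not detectable at this spread. With voom on the recovered reads, 0 of 8 passed the thresholds as well and 1 of 8 had an unadjusted p below 0.05.

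Whether the other 7 genes appeared higher or lower in PQQ-L depended on single CON libraries. Without CON 1, the log2FC was below 0 for 8 of 8, with a median of -0.61. Without CON 2, it was below 0 for 1 of 8, which was Ptgds, and the median was 0.39. Without the 4 striatum-rich libraries, where CON keeps CON 2 alone, all 8 were below 0 with a median of -0.76.

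The second comparison asked the same of high-dose PQQ. All 8 genes had a log2FC below 0 in PQQ-H vs. CON, where 55.6% of all genes did, and the median was -1.06, against -0.03 over all genes. With limma, 0 of 8 passed the thresholds for DEGs, against 0.819% of all genes, and 0 of 8 did so with voom. At an unadjusted p below 0.05, 3 of 8 were lower, against 7.88% of all genes. Ptgds and Aldh1a2, 2 of the 8, were lower without overlap between the libraries, against 5.72% of all genes.

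By role, the proteoglycan genes Dcn and Lum had a log2FC of -1.17 (SE 0.792, limma adjusted p = 0.707) and -1.08 (SE 0.379, limma adjusted p = 0.341). For Ogn it was -0.62 and for Islr -0.19. The enzyme genes Aldh1a2 and Ptgds had -1.18 (SE 0.432, limma adjusted p = 0.369) and -1.06 (SE 0.284, limma adjusted p = 0.150). The transporter genes Slc22a6 and Slc6a13 had -1.06 (SE 0.562, limma adjusted p = 0.593) and -0.28. On the FPKM scale, the CON mean was 3.43-fold that of PQQ-H for Dcn, 3.13-fold for Slc22a6, 2.75-fold for Aldh1a2 and 2.04-fold for Ptgds. Without CON 2, the CON mean fell from 11.9 to 5.12 FPKM for Dcn, from 0.836 to 0.491 for Slc22a6 and from 2.51 to 1.53 for Aldh1a2.

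The size of this difference also rested on CON 1 and CON 2. Without CON 1 the median log2FC was -1.52, 7 of 8 genes had an unadjusted p below 0.05 and the lowest limma adjusted p was 0.0722. Without CON 2 the median was -0.42, 6 of 8 were below 0 and 1 of 8 had an unadjusted p below 0.05. Without the striatum-rich libraries the median was -1.53, but CON then consists of CON 2 alone, the highest library for 6 of the 8 genes, and no test is drawn from it. The comparisons of PQQ-L and PQQ-H share the same 3 CON libraries, so they are not independent of each other.

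The third comparison set the doses against each other and estimated its log2FC from the PQQ libraries, although the CON libraries entered the estimate of the spread. All 8 genes had a log2FC below 0 in PQQ-H vs. PQQ-L, against 54.3% of all genes, with a median of -0.95, against -0.02. The thresholds for DEGs were passed by 0 of 8, as by 0% of all genes, and by 0 of 8 with voom. Lum (log2FC -0.95, SE 0.333) and Aldh1a2 (log2FC -0.95, SE 0.379) had an unadjusted p below 0.05, which makes 2 of 8, against 4.6% of all genes, and for both the limma adjusted p was 0.580. In PQQ-H, 0 of 8 were lower without overlap between the libraries of the doses, against 3.33% of all genes. Dcn had the lowest log2FC, -1.35, with a 95% confidence interval from -2.88 to 0.17. For Slc6a13 the log2FC was -0.20 (95% confidence interval -0.75 to 0.36). The median over the 8 ran from -1.05 to -0.81 when each library was left out in turn. The number of genes at an unadjusted p below 0.05 ran from 1 to 6 of 8 in the same fits, with 6 without CON 1, 5 without CON 2 and 1 without any of PQQ-L 1, 3 and 5 or PQQ-H 1, 3 and 4. It was 6 of 8 when the fit held the PQQ libraries alone, with a lowest limma adjusted p of 0.320. Without the striatum-rich libraries, PQQ-H 3 and PQQ-H 4 alone stood for the high dose, and the median was -0.82. That fit holds CON 2 alone for CON, so no test is drawn from it.

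**Figure D2:**
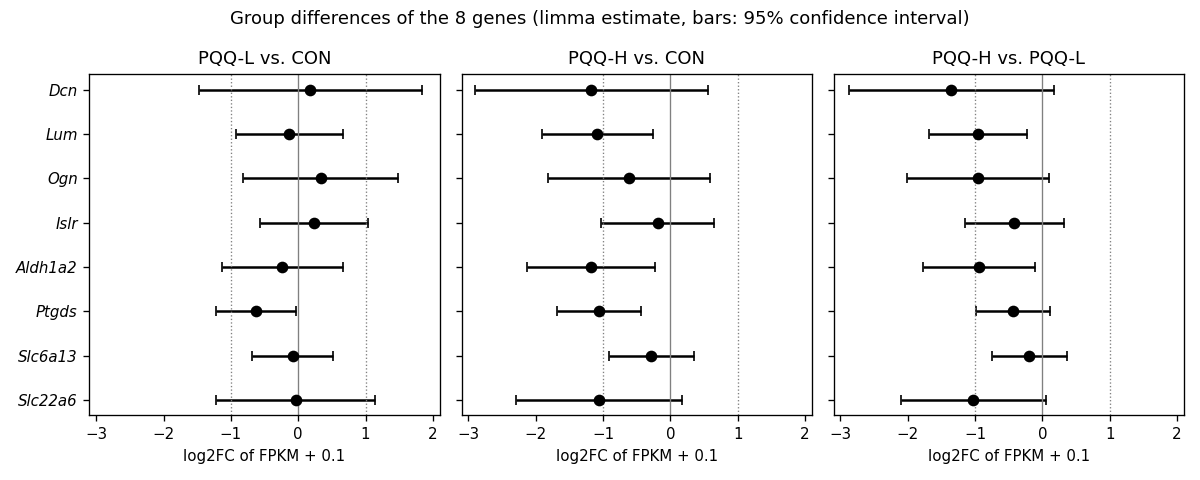
Limma log2FC of FPKM + 0.1 for the 8 genes in the 3 comparisons (points) with 95% confidence intervals (bars), a solid line at 0 and dotted lines at the fold threshold of 1. In PQQ-H vs. CON the intervals of Ptgds, Aldh1a2 and Lum lie below 0, in PQQ-L vs. CON that of Ptgds does, and in PQQ-H vs. PQQ-L those of Lum and Aldh1a2 do.

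The spread within groups was large beside that of other genes. The SD of log2(FPKM + 0.1) within groups was above the median gene (0.211) for 8 of the 8, with a median of 0.589 over them. For Dcn it was 1.17, more than in 98.4% of the genes tested. Between 9.23% (Slc6a13) and 56.0% (Ptgds) of the variance lay between the groups, while the median gene had 27.2%.

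Of the 8 genes, those other than Ptgds varied together across the libraries. Over the 21 pairs without Ptgds, Pearson's r of log2(FPKM + 0.1) ranged from 0.468 to 0.936 with a median of 0.714, and after removal of the group means from 0.383 to 0.936 with a median of 0.677. The closest pairs were Aldh1a2 with Slc22a6 (r = 0.936, rho = 0.881) and Ogn with Islr (r = 0.917, rho = 0.867). For the chromosomal neighbours Dcn and Lum, r was 0.765 and rho 0.804. These are descriptions over 12 libraries in which all genes share the same dissection and depth. The mean z-score of the 8 genes was highest in CON 2 (1.55), PQQ-L 3 (0.880) and PQQ-L 1 (0.735) and lowest in CON 1 (-0.99) and PQQ-H 1 (-0.92).

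Over all 12 libraries Ptgds followed the other genes less closely, with r from 0.205 (Islr) to 0.756 (Aldh1a2) and a median of 0.512 over its 7 pairs. In the 8 libraries that were not striatum-rich this order turned, with a median of 0.851 over the pairs with Ptgds and 0.766 over those without it. Against the mean z-score of the other 7, r was 0.574 (permutation test, p = 0.0527, adjusted over 4 relations 0.105) and rho 0.531 (permutation test, p = 0.0803, adjusted 0.161). Without CON 2 and PQQ-L 3, the libraries farthest from the median, r was 0.379. Without CON 1 and CON 2, the 7 pairs with Ptgds had r from 0.459 to 0.751, with a median of 0.543. The strength of the relation thus depended on which libraries were left out. Among the 8 libraries that were not striatum-rich, r with the mean z-score of the other 7 was 0.941. With the mean z-score of 12 oligodendrocyte markers, Ptgds had r = 0.492 (permutation test, p = 0.106, adjusted 0.106) and rho = 0.399 (permutation test, p = 0.202, adjusted 0.202), and r was 0.600 without CON 1 and PQQ-H 1 and 0.514 in the libraries that were not striatum-rich. CON 1 showed the gap most plainly, with a z-score of 0.63 for Ptgds and -1.23 for the other 7. This library had the highest summed FPKM of oligodendrocyte markers, 3517, where the lowest library had 1202. It also had the highest sums of striatal neuron markers (3055) and of thalamic neuron markers (128). Its sum of choroid plexus markers was 4105. The part of these tissues in the gap was not tested.

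**Figure D3:**
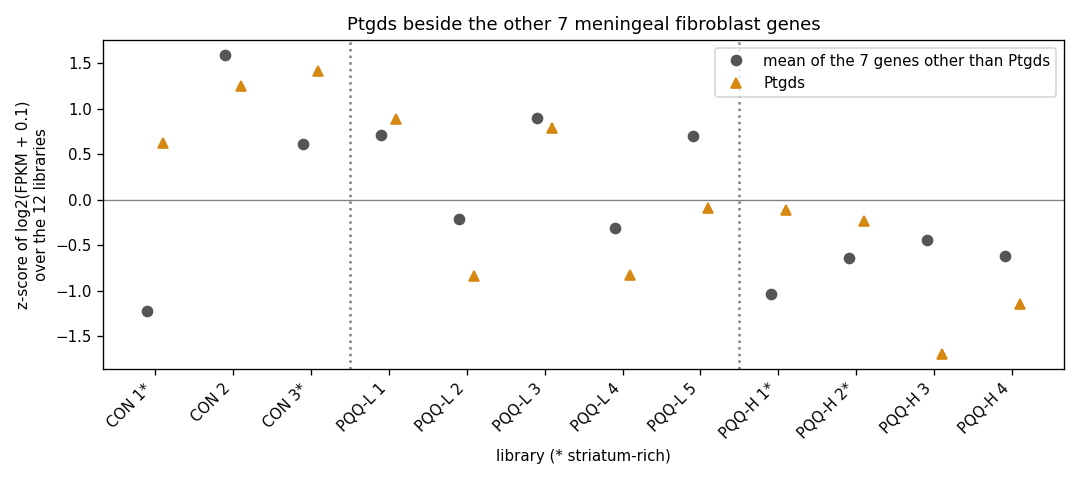
Mean z-score of log2(FPKM + 0.1) of the 7 genes other than Ptgds (circles) and z-score of Ptgds (triangles) in each of the 12 libraries, with striatum-rich libraries starred. In CON 1 the 7 genes are at -1.23 and Ptgds at 0.63, whereas in CON 2, PQQ-L 1 and PQQ-L 3 both are above 0.

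The upstream sequences of a few members are shown because these genes vary together. The table of RefSeq promoters used here (GRCm38.p6) matched 6 of the 8 genes, all but Dcn and Lum. The 250 bases before the start are printed for Ogn, Aldh1a2 and Slc22a6, the members of the closest pairs (Aldh1a2 with Slc22a6, Ogn with Islr) for which the printed start is the outermost one in RefSeq. They lie on the plus strand at chr13:49607765-49608014, chr9:71215539-71215788 and chr19:8617746-8617995, each written 5′ to 3′. Capitals mark the motifs searched for on both strands. These were the TATA box as TATAAA, the CCAAT box by that name, the E-box as CAGCTG, the forkhead core as GTAAACA, the nuclear receptor half-site as AGGTCA, the GC box as GGGCGG and the TEAD core as GGAATG. In Slc22a6 a TEAD core overlaps a CCAAT box, and those letters form a single run.
Ogn: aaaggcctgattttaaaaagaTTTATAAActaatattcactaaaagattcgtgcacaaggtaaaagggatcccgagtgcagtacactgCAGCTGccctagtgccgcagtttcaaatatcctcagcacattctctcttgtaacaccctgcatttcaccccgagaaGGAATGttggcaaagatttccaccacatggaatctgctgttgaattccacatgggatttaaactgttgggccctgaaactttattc
Aldh1a2: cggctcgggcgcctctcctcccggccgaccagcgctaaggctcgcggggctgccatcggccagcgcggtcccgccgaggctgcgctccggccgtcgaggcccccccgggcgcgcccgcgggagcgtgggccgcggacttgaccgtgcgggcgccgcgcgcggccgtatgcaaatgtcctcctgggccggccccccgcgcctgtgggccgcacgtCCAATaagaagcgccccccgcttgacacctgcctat
Slc22a6: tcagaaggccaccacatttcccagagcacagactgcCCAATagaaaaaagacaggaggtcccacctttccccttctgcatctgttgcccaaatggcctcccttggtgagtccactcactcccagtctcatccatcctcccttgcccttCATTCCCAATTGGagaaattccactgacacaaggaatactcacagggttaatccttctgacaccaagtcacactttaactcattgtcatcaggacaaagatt

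These windows differed in composition. That of Aldh1a2 had 77.6% GC and 40 CpG, that of Slc22a6 48.4% GC and 0 CpG, and that of Ogn 42.0% GC and 4 CpG, beside a median of 52.4% and 6 CpG over 32851 promoters. CAGCTG was present upstream of 4 of the 6 genes (Ogn, Islr, Ptgds and Slc6a13) and in 13% of all promoters. CCAAT was present for 3 of 6 (Aldh1a2, Slc22a6 and Slc6a13) and in 33.8% of all, and GGAATG for 3 of 6 (Ogn, Slc22a6 and Slc6a13) and in 12.6% of all. TATAAA was found for Ogn (12.4% of all), AGGTCA and GGGCGG for Slc6a13 (14.0% and 32.7% of all), and GTAAACA for 0 of 6 (3.17% of all). Slc6a13 has 3 starts in RefSeq and therefore more sequence to match. A match describes the letters and shows no binding.

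Whether other fibroblast genes behaved like these 8 was examined in a longer list of meningeal and perivascular fibroblast genes, of which 38 passed the FPKM filter. Against the mean z-score of the 8 genes, r was above 0.5 for 18 of the 38 (47.4%), while this was so for 16.6% of all genes tested. High values were found for Gjb2, a connexin of meningeal gap junctions (r = 0.927), Fmod, which encodes the proteoglycan fibromodulin (0.911), Pdgfra, a receptor for platelet-derived growth factor (0.904), the amino acid transporter Slc6a20a (0.902) and Foxc1, a transcription factor needed for the meninges to form (0.883). The median r was 0.465 over the list, 0.373 over 19 choroid plexus markers, -0.01 over 10 mural cell markers, 0.01 over 10 endothelial markers and -0.58 over 8 microglial markers, and 0.10 over all genes. It was 0.493 over 6 ependymal markers and 0.470 over 9 astrocyte markers, so the likeness was not particular to fibroblast genes. In the 8 libraries that were not striatum-rich, the median was 0.781 over the fibroblast list and 0.773 over the choroid plexus markers. There it was 0.754 over the ependymal, 0.662 over the astrocyte, 0.440 over the endothelial and 0.419 over the mural cell markers. It was -0.60 over the microglial markers and 0.13 over all genes. Over the 12 libraries, Fbln1 was high as well (0.889), and r was lowest in the list for Nupr1 (-0.36), Igfbp6 (-0.30) and Col6a1 (-0.28). The single genes named here other than Gjb2, which the rule on likeness selects, were named after their values were seen.

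Some genes of this list passed the thresholds. In PQQ-L vs. CON, 4 of the 38 were DEGs (Col1a1, Igfbp2, Bgn and Pcolce), and in PQQ-H vs. CON 6 were (the same 4 with Col1a2 and Igf2), all of them lower, where 0.471% and 0.819% of all genes were called. In PQQ-H vs. PQQ-L 0 were, also with voom, and 7 of 38 were lower at an unadjusted p below 0.05, against 4.6% of all genes. With voom the counts against CON were 6 and 7 of 49, with Col3a1 called in both and Col1a2 also in PQQ-L. Pcolce, which encodes an enhancer of procollagen processing, had an FPKM of 14.4, 8.98 and 18.8 in CON, 1.81 to 2.21 in PQQ-L and 1.37 to 1.88 in PQQ-H, with a log2FC of -2.68 (SE 0.200, limma adjusted p = 2.92e-04) and -3.003 (SE 0.209, limma adjusted p = 4.86e-05), respectively. The collagen gene Col1a1 had 1.29, 1.34 and 1.17 in CON and at most 0.652 in any PQQ library. Bgn, which encodes biglycan, a proteoglycan related to decorin, had 10.6, 9.48 and 11.3 in CON and at most 5.39 in the PQQ libraries. CON 1 was among the 3 highest libraries for 5 of these 6 genes, Igf2 being the exception, and was the lowest library for Dcn, Ogn and Islr. The 6 were selected for a difference from CON, so their high values there are a description. The r of the 6 with the mean of the 8 was 0.668 for Igf2, 0.580 for Col1a2, 0.505 for Col1a1, 0.336 for Igfbp2, 0.293 for Pcolce and 0.259 for Bgn. Without the striatum-rich libraries, where CON 2 stands alone for CON, all 6 were lower in both comparisons. Their log2FC was -2.10 to -1.05 in PQQ-L and -2.39 to -1.07 in PQQ-H, and no test is drawn from this fit. Choroid plexus markers were likewise high in all 3 CON libraries, and their part in these differences was not tested.

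**Figure D4:**
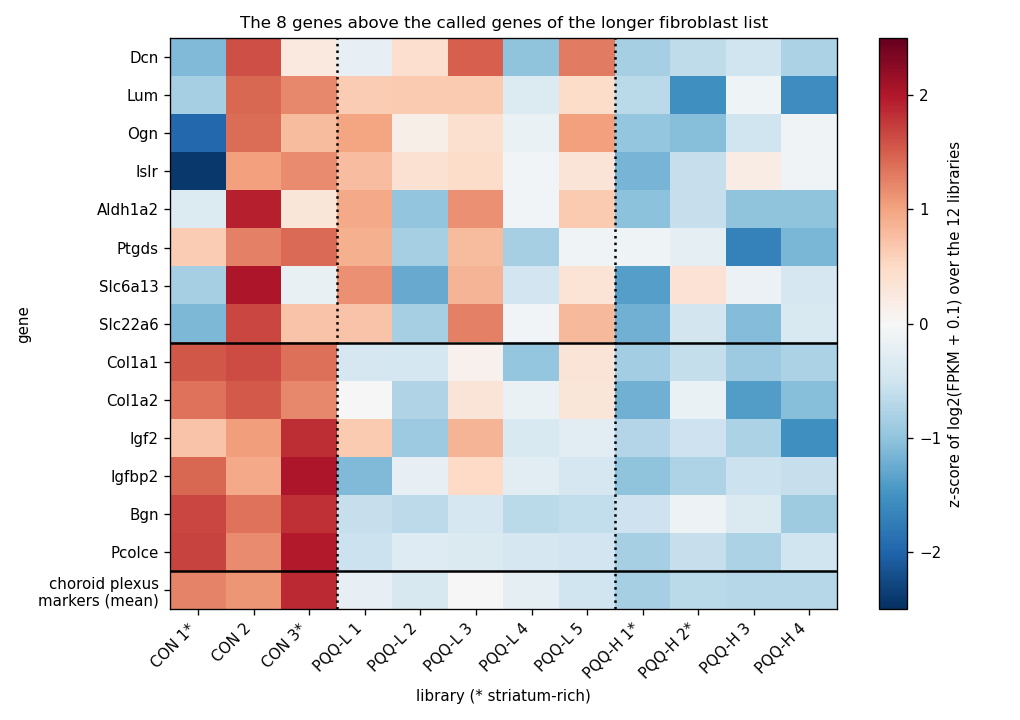
Heat map of z-scores of log2(FPKM + 0.1) in the 12 libraries for the 8 genes (top), the 6 called genes of the longer fibroblast list (middle) and the mean of the choroid plexus markers (bottom), with striatum-rich libraries starred. The middle block, selected for its difference from CON, and the bottom block are above 0 in all CON libraries, whereas the top block is below 0 in CON 1 except for Ptgds.

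Within the PQQ-treated mice, where choroid plexus markers covered a narrower range, these markers and the fibroblast genes were compared without CON. CON was left out because it stood apart on these markers. Its mean z-scores of the choroid plexus markers were 1.25, 1.11 and 1.87 in CON 1, 2 and 3. Those of the 7 genes other than Ptgds were -1.23, 1.59 and 0.61. The relations with choroid plexus and oligodendrocyte markers were not among those planned. Over the 9 PQQ libraries, the mean z-score of the 7 genes other than Ptgds had r = 0.791 with that of the choroid plexus markers (permutation test, p = 0.0140, adjusted over 4 relations 0.0561) and rho = 0.883 (permutation test, p = 0.00309, adjusted 0.0124). Without PQQ-L 3 and PQQ-H 1 r was 0.584, and in the 7 libraries that were not striatum-rich it was 0.685. For Ptgds the values were r = 0.582 (permutation test, p = 0.104, adjusted 0.106) and rho = 0.550 (permutation test, p = 0.133, adjusted 0.178), and r was 0.582 without the same 2 libraries and 0.798 in the 7. The dose groups differ in both measures, so these values hold a difference between groups as well as one between mice. The p-values cannot tell these apart, and no relation between mice of the same dose is drawn from them.

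The pathway partners of the 8 genes were counted next. Of 14 other small leucine-rich proteoglycans and relatives, 5 passed the FPKM filter, and Bgn was the DEG in both comparisons with CON. Of 20 genes of retinoic acid synthesis, transport and breakdown, 17 were tested and Rdh5 and Ttr were lower in both. Rdh5, a retinol dehydrogenase, had a log2FC of -2.61 in PQQ-L (limma adjusted p = 0.00181) and -2.69 in PQQ-H (limma adjusted p = 0.00116). Ttr, which encodes the carrier transthyretin and is in the choroid plexus list, had -5.38 and -7.24. Of 20 prostaglandin genes, 13 were tested and 1 passed the thresholds, which was Ptgis under the high dose. Ptgis encodes prostacyclin synthase and had -1.29 there (limma adjusted p = 0.0251). Under the low dose it had -1.07 (limma adjusted p = 0.0606), short of the threshold for the adjusted p. With voom, Bgn, Rdh5, Ttr and Ptgis were called against CON under each dose. Of all genes tested with limma, 0.471% were called under the low dose and 0.819% under the high dose.

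The transporter families gave 0 DEGs in any comparison, with limma as well as with voom. In the Slc6 list, 8 of 10 genes were tested. At an unadjusted p below 0.05, 1 of them was lower and 1 was higher under the low dose, whereas 3 were lower under the high dose. The 3 with the highest mean FPKM included Slc6a17 (73.8) and Slc6a11 (38.6). In the list of organic ion transporters, 12 of 16 were tested and 6 were lower at an unadjusted p below 0.05 in each comparison with CON. Of all genes, 11.6% were lower at that p in PQQ-L and 7.88% in PQQ-H. Between the doses, 2 genes of the Slc6 list and 1 of the organic ion list were lower at that p, against 4.6% of all genes. The highest were Slc22a17 (99.7), Slco1c1 (20.8) and Slco1a4 (14.0). Slc22a8, which encodes OAT3 and is the chromosomal neighbour of Slc22a6, had a log2FC of -0.83 in PQQ-H (SE 0.129, limma adjusted p = 0.00902), short of the fold threshold, and was named after its value was seen.

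Over all 13788 other genes tested, the 5 most like the mean z-score of the 8 included Plekha7 (r = 0.935), Ssr1 (0.935), Gjb2 (0.927) and Pcnt (0.925). Plekha7 and Gjb2 encode proteins of cell junctions, Ssr1 a protein of the translocon and Pcnt a centrosomal protein. The 5 most like Ptgds were Whrn (r = 0.948), Cdc14b (0.938), E130308A19Rik (0.937), Antxr1 (0.932) and Ginm1 (0.932). The lists have no gene in common. Ssr1 spans 15.2 to 19.7 FPKM, a much narrower range than that of the 8 genes.

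**Figure D5:**
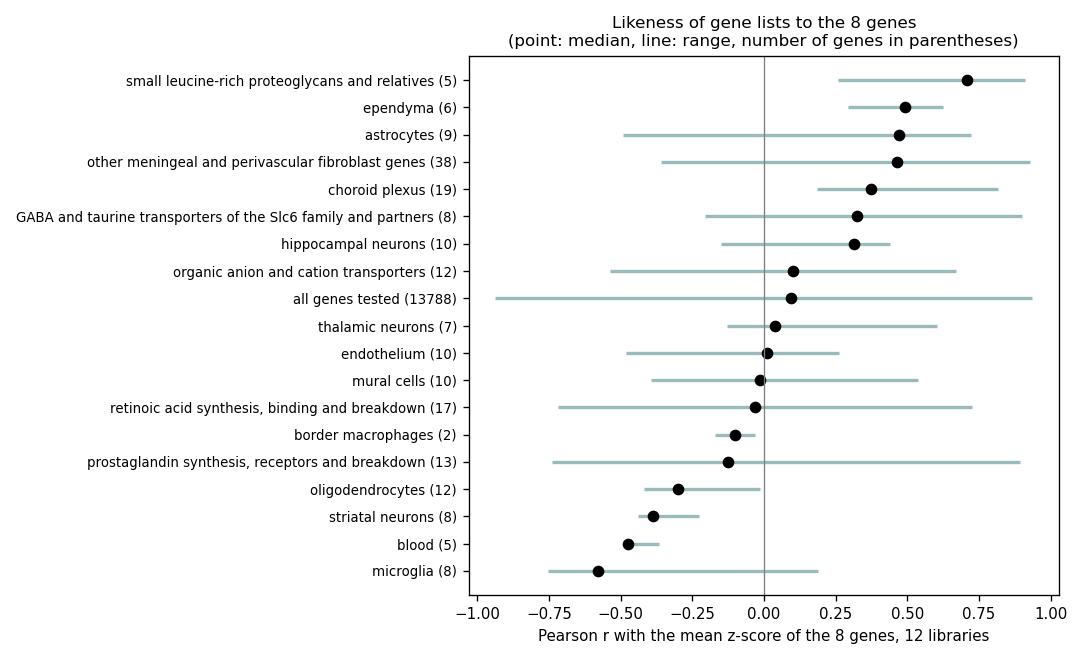
Pearson's r of single genes with the mean z-score of the 8 genes over 12 libraries, as the median (point) and range (line) of each gene list, with the number of genes in parentheses. The other fibroblast genes have a median of 0.465 and reach 0.927, the microglial markers have a median of -0.58, and all genes have a median of 0.10.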

How the data were processed

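Hippocampal RNA of 12 mice was analyzed (CON 3, PQQ-L 5 and PQQ-H 4 libraries, grouped by the deposited treatment labels). The authors sequenced on an Illumina NovaSeq instrument, filtered reads with fastp, mapped them with HISAT2, counted them per gene with HTSeq-count and deposited FPKM for 27833 genes. The labels name the build mm39, while program versions, annotation and strandedness are not given in the sources used here. The authors' DESeq2 test was not repeated as the main test because FPKM are not counts.

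Groups were compared with limma 3.58.1 (R 4.3.3, moderated test with trend, one fit of 12 libraries) on log2(FPKM + 0.1). The 13796 genes tested had a mean FPKM of 0.5 or more. The fold change of low genes is understated on this scale. DEGs met the thresholds of the authors, an absolute log2FC above 1 with an adjusted p (Benjamini-Hochberg) below 0.05. Whole reads were recovered from the FPKM steps for 25563 of 25563 genes with values in at least 2 libraries (100%, tolerance 0.02 reads). Correlations used 100000 permutations (two-sided), and intervals are 95% limits. Python 3.11.15 was used with scipy 1.17.1, numpy 2.4.6, matplotlib 3.10.9 and pandas 2.3.3, and the steps were tested on simulated data.

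The 8 genes and all lists were chosen with earlier results of these data known. The genes named are the 8, the called genes of each list (or the 3 with the highest mean FPKM where none was called) and the 5 genes most like the 8 and most like Ptgds. A few of these genes are not named in the text. Another 26 settings were planned (pseudocounts, filters, scalings, other limma options, covariates, a replicate block, voom and each library left out), and 1 was chosen after seeing the data (the 4 striatum-rich libraries left out, with a summed striatal FPKM above 1000). The replicate numbers did not pair the libraries, and no duplicate libraries were found.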

Additional observations from a re-analysis of the deposited data

Results flagged for a closer look

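Each of the 8 genes was examined in PQQ-L and in PQQ-H for a library that stands apart from its group (Dixon's criterion), which makes 16 tests, and chance flags about 1 group in 20. In PQQ-L, Lum was low in PQQ-L 4, at 0.658 FPKM, while the other 4 libraries had 1.02 to 1.12. In PQQ-H, Aldh1a2 was high in PQQ-H 2, at 1.09 FPKM, while the other 3 libraries had 0.842 to 0.853. PQQ-H 2 is striatum-rich and PQQ-L 4 is not. The CON group, with 3 libraries, was not examined in this way.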

How the results depend on the processing

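None of the 8 genes passed the thresholds in any comparison under the main settings or under any of the 27 alternatives. When each library was left out in turn, the median log2FC of the 8 ranged from -0.61 (without CON 1) to 0.39 (without CON 2) in PQQ-L and from -1.52 (without CON 1) to -0.42 (without CON 2) in PQQ-H. Without the striatum-rich libraries it was -0.76 in PQQ-L. In PQQ-L, the same step gave ranges of -0.65 to 1.02 for Dcn, -0.62 to 0.16 for Lum, -0.52 to 0.90 for Ogn, -0.39 to 0.57 for Islr, -0.61 to 0.27 for Aldh1a2, -0.31 to 0.24 for Slc6a13 and -0.73 to 0.52 for Slc22a6. In PQQ-H, it gave -2.01 to -0.33 for Dcn, -1.48 to -0.06 for Ogn, -0.81 to 0.15 for Islr and -0.50 to 0.0458 for Slc6a13, while Islr had 0.26 with array weights.

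In PQQ-L, the sign also changed for Slc22a6 with a pseudocount of 0.01 (0.0012), TPM (0.0850), array weights (0.170), a covariate for the first letter of library names (0.0644) and voom on recovered reads (0.0504). It changed for Slc6a13 with TPM (0.0220) and quantile normalization (0.0222), and for Lum with array weights (0.0699). Without the striatum-rich libraries, it changed for Dcn (-1.49), Ogn (-0.78) and Islr (-0.35). The causes were not tested. In a fit with a replicate block, Lum had 0.0140 in PQQ-L and the medians were -0.03 in PQQ-L, -0.92 in PQQ-H and -0.86 between the doses, with 0 of 8 called. The numbers do not pair the libraries, since the correlations between same-numbered libraries ran from -0.62 to 0.72. Over all genes, the number of DEGs ran from 1 to 866 in PQQ-L and from 6 to 170 in PQQ-H across the alternatives. A mean FPKM of at least 1 removed Lum and Slc22a6, which left 6 genes. Lum and Slc22a6 have few reads, and groups of 3 to 5 libraries limit what can be called.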
